A study of Mus musculus with 12 samples.

Results

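The alpha and beta chains of the high-affinity IgE receptor, Fcer1a and Ms4a2, the Src family kinase Fyn and the ITAM adaptor Tyrobp were followed in mouse bone marrow-derived mast cells before and after crosslinking of that receptor. These 4 genes were taken by the names of their probes from the 734 endogenous probes of an nCounter myeloid immunity panel, and all 4 passed the filter on low counts that 545 of the 734 probes passed. A barcode count is the number of single fluorescent barcodes read for an mRNA, without reverse transcription or amplification.

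Cells were grown from bone marrow of C57BL/6 mice aged 6 to 8 weeks for at least 4 weeks with IL-3, and were then edited with Cas9 and a repair template that places a ZsGreen reporter in the targeted gene. The target was Kit in cells labelled c-Kit KO, which served as the edited control, and Mettl3, the m6A RNA methyltransferase, in cells labelled Mettl3 KO. Both were sorted for ZsGreen as mixed populations and not as clones, so every group, the controls included, had been electroporated, edited and sorted. Cells of each genotype were left resting (unstimulated) or received IgE against DNP at 1 µg/ml with its antigen HSA-DNP at 0.2 µg/ml for 4 h (stimulated), which gave 4 groups of 3 libraries. The authors give 3 independent biological replicates, and the labels number them 1, 2 and 3.

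The receptor is built from the ligand-binding alpha chain, a beta chain that amplifies the signal, and a pair of gamma chains. Antigen crosslinks IgE bound to the alpha chain, and the Src kinase Lyn phosphorylates the ITAM tyrosines of beta and gamma. Syk is then recruited and phosphorylates adaptors such as LAT, from which calcium, MAP kinase and NFAT signals follow. Tyrobp, also called DAP12, is an ITAM adaptor for other activating receptors of myeloid cells. The gamma chain and Lyn were not analysed here.

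Endogenous probes received 504238 to 737910 counts per library, and the 8 negative control probes averaged 7.13 to 22.8 counts, with no single negative probe above 38. Normalized counts are these counts divided by a library factor from 20 housekeeping probes. The 9 mast cell markers summed to between 270230 and 368171 normalized counts in unstimulated libraries and between 141077 and 251089 in stimulated ones. The 10 macrophage or monocyte markers, of which 6 passed the filter, summed to between 140 and 213 over the 12 libraries, and none of the 4 eosinophil markers passed it. The sums were 73.8 to 130 for 8 neutrophil or precursor markers, 74.0 to 128 for 6 dendritic cell markers and 57.5 to 110 for 5 lymphocyte markers. Raw counts of the markers of these other cell types were 60 or lower. Most of them lay within the range of single negative probes, also for markers that passed the filter. Of the 9 mast cell markers, 4 fell with stimulation (Kit, Cpa3, Gata2 and Hpgds), 1 rose (Hdc) and 4 did not pass an adjusted p of 0.05. Over all 545 tested probes, 16.3% fell and 24.6% rose at that threshold. The part of a general shift of mast cell mRNAs in the changes below was not tested. Kit, the targeted gene with a probe, had 1856 to 2856 normalized counts in the unstimulated c-Kit KO libraries and 2456 to 4057 in the Mettl3 KO ones, ranges that overlapped (edgeR quasi-likelihood test, adjusted p = 0.997), so its mRNA count did not separate the genotypes and a genotype below is the one the labels give. Kit fell with stimulation, by 0.96 ± 0.22 (SE) on the log2 scale as the mean of both genotypes (edgeR adjusted p = 0.00479).

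The start-site regions of Fcer1a and Ms4a2 are shown because the mRNAs of both chains fell together, and because the GATA motif AGATAA is the site type bound by GATA factors of mast cells. In RefSeq promoters of GRCm38.p6, each running from 250 bases before to 50 bases after the start site, AGATAA was searched on both strands. Of 32851 promoters, 3672 (11.2%) held it. The Fcer1a promoter held 1 match and that of Ms4a2 held 3, none overlapping another, and the Fyn promoter held none. The promoter of Tyrobp was not analysed here. Both matched genes lie on the minus strand of their chromosome. Windows of 30 bases are given 5′ to 3′ on the gene's strand, with the match in capitals (TTATCT is AGATAA on the other strand).
Fcer1a, chr1:173227304-173227333, match at -92 to -87 from the start site: acaaccctattaTTATCTctggagaaagcc
Ms4a2, chr19:11623926-11623955, match at -224 to -219: ttctgctctcttTTATCTtctcatttccta
Ms4a2, chr19:11623739-11623768, match at -37 to -32: cagcctggagacTTATCTgacaagtaggtt
Ms4a2, chr19:11623713-11623742, match at -11 to -6: ggttccgcatgaAGATAAtcattggtattc
These matches describe letters only, and no binding was measured. Of the GATA factors on the mast cell list, Gata2 fell by 0.54 ± 0.15 (SE) on the log2 scale with stimulation (edgeR adjusted p = 0.0111), and Gata1 differed by -0.20 ± 0.17 (SE, adjusted p = 0.388). Among other GATA factors tested on the panel, Gata3 rose by 1.74 ± 0.37 and Gata6 fell by 0.89 ± 0.22 (SE, edgeR adjusted p = 0.00282 and 0.00582). A part of any GATA factor in the changes of the receptor chains was not tested.

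All 4 genes changed with stimulation when the changes of both genotypes were averaged. Fcer1a, Ms4a2 and Tyrobp fell and Fyn rose, each at an adjusted p under 0.05 in edgeR's quasi-likelihood test over the 545 probes, where 40.9% of the probes passed (24.6% higher and 16.3% lower). Normalized counts of the 6 stimulated libraries did not overlap those of the 6 unstimulated ones for any of the 4, with stimulated libraries lower for 3 genes and higher for 1. Among all tested probes, 8.81% were lower and 13.2% higher without overlap. In bulk RNA, fewer cells with a transcript and less of it per cell cannot be told apart.

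**Figure D1:**
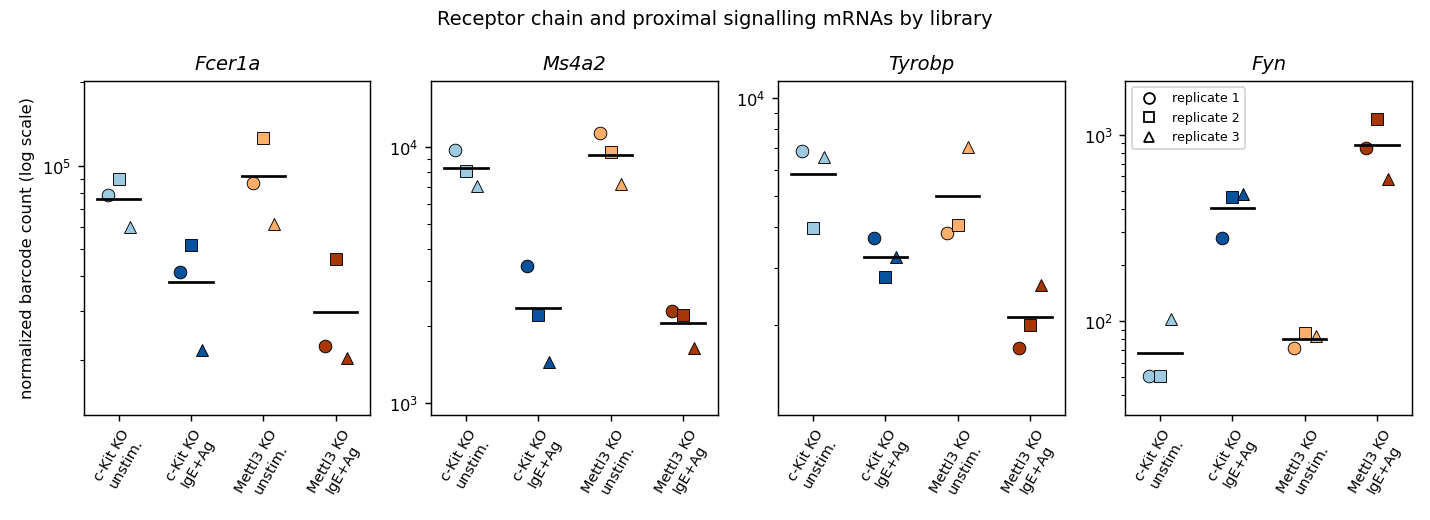
Normalized barcode counts (log scale) of the 4 genes in each of the 12 libraries, by group, with symbols for the replicate numbers and a bar at the group mean of 3 libraries. The 6 stimulated libraries sit below the 6 unstimulated ones for Fcer1a, Ms4a2 and Tyrobp and above them for Fyn.

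Fcer1a encodes the IgE-binding alpha chain (GRCm39, chromosome 1, 173048851 to 173054781, minus strand) and alone took 9.78% to 15.8% of all endogenous counts in unstimulated libraries. Unstimulated libraries labelled c-Kit KO had 78429, 89372 and 60420 normalized counts in replicates 1, 2 and 3, and stimulated ones had 41326, 51727 and 21723. Unstimulated libraries labelled Mettl3 KO had 87090, 126364 and 61672, and stimulated ones 22505, 46251 and 20336. Replicate 2 was the highest and replicate 3 the lowest in each of the 4 groups, and all 6 same-numbered pairs fell. The mean went from 76073 ± 14619 to 38258 ± 15236 (SD, n = 3) in cells labelled c-Kit KO and from 91709 ± 32592 to 29697 ± 14377 in those labelled Mettl3 KO. As the mean of both genotypes Fcer1a fell 2.48-fold, a log2 change of -1.31 ± 0.29 (SE, 95% interval -1.95 to -0.67, edgeR adjusted p = 0.00375). After stimulation it still held 3.39% to 8.20% of the endogenous counts. Without the 4 libraries of replicate 1 the change was -1.26 and did not pass (adjusted p = 0.0723).

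Ms4a2 encodes the beta chain, which carries an ITAM of its own (GRCm39, chromosome 19, 11592887 to 11601083, minus strand). Libraries labelled c-Kit KO had 9771, 8086 and 7018 normalized counts unstimulated and 3419, 2208 and 1441 stimulated. Libraries labelled Mettl3 KO had 11320, 9536 and 7172 unstimulated and 2290, 2216 and 1632 stimulated. Here replicate 1 was the highest and replicate 3 the lowest in every group, and the highest stimulated library lay well below the lowest unstimulated one. Ms4a2 fell 4.01-fold as the mean of both genotypes, a log2 change of -2.00 ± 0.23 (SE, 95% interval -2.51 to -1.50, edgeR adjusted p = 4.81e-05). Of the 545 probes, 7 had a more negative change, since Ms4a2 ranked 8 from the lowest, whereas Fcer1a ranked 33 and Tyrobp 47.

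The fall of the beta chain was larger than that of the alpha chain, which was tested on the ratio of their counts within each library. Since each probe has its own efficiency, the ratio is not a ratio of molecules, and only its change is read. Unstimulated libraries labelled c-Kit KO had 8.03, 11.1 and 8.61 Fcer1a counts per Ms4a2 count, and stimulated ones 12.1, 23.4 and 15.1. Libraries labelled Mettl3 KO went from 7.69, 13.3 and 8.60 to 9.83, 20.9 and 12.5. The ratio was higher after stimulation in 6 of 6 same-numbered pairs, although the stimulated and unstimulated groups overlapped, with replicate 2 the highest in every group. The log2 ratio rose by 0.67, or 1.59-fold (range over pairs 0.35 to 1.08, two-sided exact permutation test over 400 arrangements within genotype, p = 0.02, smallest possible 0.005). With signs permuted within the 6 pairs, the exact p was 0.0313, the smallest that 6 pairs allow. Both tests treat the genotypes of a replicate number as independent, although same-numbered libraries were taken as paired. These p-values may therefore be too small. The permutation p reached 0.05 or more without 1 library in 5 cases, at 0.62 and 0.65 (p = 0.05 each) without unstimulated c-Kit KO replicate 1 or 3, 0.59 and 0.63 (p = 0.06 and 0.055) without unstimulated Mettl3 KO replicate 1 or 3, and 0.52 (p = 0.06) without stimulated Mettl3 KO replicate 2, in exact permutation tests.

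**Figure D2:**
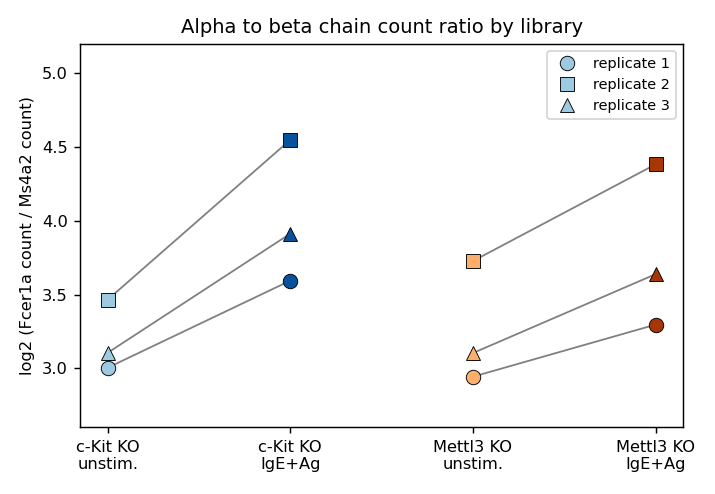
Log2 ratio of the Fcer1a count to the Ms4a2 count in each library, with grey lines joining same-numbered libraries of a genotype. All 6 lines rise from unstimulated to stimulated, by 0.35 to 1.08.

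Tyrobp, the ITAM adaptor (GRCm39, chromosome 7, 30113170 to 30117010, plus strand), had the smallest estimated change of the 4. Libraries labelled c-Kit KO had 6884, 3966 and 6580 normalized counts unstimulated and 3696, 2813 and 3228 stimulated. Libraries labelled Mettl3 KO had 3825, 4057 and 7050 unstimulated and 1691, 1993 and 2644 stimulated. Each of the 6 pairs fell, but the margin between the states was thin, as the lowest unstimulated library (Mettl3 KO replicate 1) was only just above the highest stimulated one (c-Kit KO replicate 1). The mean change was -1.04 ± 0.22 on the log2 scale (SE, 95% interval -1.52 to -0.56, edgeR adjusted p = 0.00267), or 2.06-fold lower. With positive control probes in place of housekeeping probes for scaling it was -0.95 and did not pass (adjusted p = 0.0648).

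Fyn, the Src family kinase that acts beside Lyn at the receptor (GRCm39, chromosome 10, 39244851 to 39442227, plus strand), moved the other way. Libraries labelled c-Kit KO had 50.7, 50.5 and 102 normalized counts unstimulated and 280, 461 and 480 stimulated. Libraries labelled Mettl3 KO had 72.0, 86.7 and 83.3 unstimulated and 847, 1213 and 576 stimulated. Unstimulated replicate 3 labelled c-Kit KO was the highest resting library, and even the lowest stimulated library was well above it. The lowest raw Fyn count, 37 in unstimulated c-Kit KO replicate 1, was above the highest negative probe of that library, which had 10. That library had the lowest background of all. In unstimulated c-Kit KO replicate 2 the raw Fyn count was 44, against 24 for the highest negative probe. Fyn rose 8.05-fold as the mean of both genotypes, a log2 change of 3.01 ± 0.27 (SE, 95% interval 2.41 to 3.61, edgeR adjusted p = 9.81e-06). It ranked 8 by p-value and 29 from the highest by log2 change among the 545 probes. With the background subtracted the log2 change of Fyn was 3.29 (edgeR adjusted p = 3.78e-05), so its size depends on the background.

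**Figure D3:**
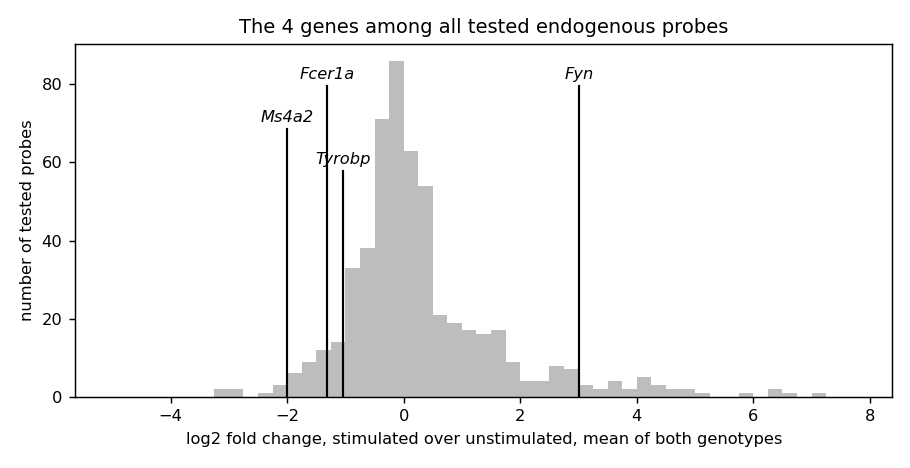
Histogram of the log2 change with stimulation (mean of both genotypes) over the 545 tested probes, with a line at each of the 4 genes. The median of all probes is -0.02, Ms4a2, Fcer1a and Tyrobp lie at -2.00, -1.31 and -1.04, and Fyn lies at 3.01.

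Within the genotypes, 2 of the 4 genes passed in cells labelled c-Kit KO, where 19.1% of all probes did (12.1% higher and 6.97% lower), and all 4 in cells labelled Mettl3 KO, where 32.3% did (21.5% higher and 10.8% lower). In cells labelled c-Kit KO, Ms4a2 fell by 1.82 ± 0.33 and Fyn rose by 2.58 ± 0.38 on the log2 scale (SE, edgeR adjusted p = 0.00287 and 0.000913). Fcer1a differed by -0.99 ± 0.41 and Tyrobp by -0.84 ± 0.31 (adjusted p = 0.116 and 0.0841). With the replicate number as a block both passed, at -1.06 for Fcer1a (adjusted p = 0.00280) and -0.81 for Tyrobp (adjusted p = 0.0265). Tyrobp also passed without unstimulated c-Kit KO replicate 2, its lowest unstimulated library of that genotype (-1.05, adjusted p = 0.0471). In cells labelled Mettl3 KO, the log2 changes were -1.63 ± 0.42 for Fcer1a, -2.19 ± 0.33 for Ms4a2, -1.24 ± 0.31 for Tyrobp and 3.44 ± 0.39 for Fyn (SE, adjusted p = 0.0115, 0.000574, 0.0105 and 0.000148). In each genotype the 3 stimulated libraries stood apart from the 3 unstimulated ones for all 4 genes, 3 lower and 1 higher, where 15.4% of all probes were lower and 18.3% higher in cells labelled c-Kit KO, and 17.6% and 26.2% in those labelled Mettl3 KO.

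**Figure D4:**
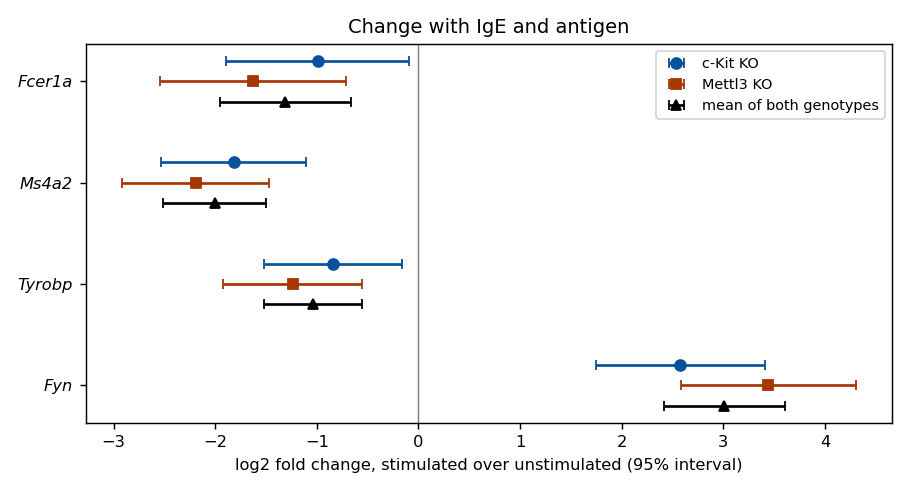
Log2 change with stimulation of each gene in cells labelled c-Kit KO, in cells labelled Mettl3 KO and as the mean of both, with 95% intervals from edgeR's fit (3 libraries per group). The points of cells labelled Mettl3 KO lie farther from 0 for all 4 genes, and the intervals of the genotypes overlap for each of them.

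The size of the change was larger in cells labelled Mettl3 KO for each of the 4 genes, but the test of that difference, the interaction of genotype and stimulation, passed for none. Its log2 values were -0.64 (95% interval -1.90 to 0.63) for Fcer1a, -0.38 (-1.35 to 0.60) for Ms4a2, -0.40 (-1.35 to 0.55) for Tyrobp and 0.87 (-0.25 to 1.99) for Fyn. By edgeR, 0 of the 4 had an unadjusted p under 0.05 for the interaction (4.04% of all probes did), as by DESeq2 and by limma, and 0 of the 545 probes passed after adjustment (0%). The difference had the same sign in 3 of 3 same-numbered pairs for Fcer1a (-1.03, -0.66 and -0.12), Tyrobp (-0.28, -0.53 and -0.39) and Fyn (1.09, 0.62 and 0.56), but not for Ms4a2 (-0.79, -0.23 and 0.15), and with the replicate block 0 of the 4 passed. The intervals still include a difference of more than 1 log2 unit for each gene.

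Set directly against each other, genotypes were compared without and with stimulation. Unstimulated, 0 of the 4 genes passed (0% of all probes did), with 0 at an unadjusted p under 0.05 by edgeR (1.28% of all probes), DESeq2 and limma, and no gene's libraries stood apart, where 2.75% of all probes were higher and 2.02% lower without overlap in those labelled Mettl3 KO. Stimulated, again 0 of 4 passed by edgeR, DESeq2 or limma, where 0.917% of all probes did by edgeR, and an unadjusted p under 0.05 was found for 1 of 4 by edgeR (14.5% of all probes) and by limma and for 2 of 4 by DESeq2. The gene by edgeR was Fyn, higher in the stimulated libraries labelled Mettl3 KO in 3 of 3 pairs and without overlap (576 to 1213 against 280 to 480 normalized counts), as were 14.3% of all probes. Its log2 difference was 1.11 ± 0.36 (SE, 95% interval 0.33 to 1.89, edgeR adjusted p = 0.192). It passed without the 4 libraries of replicate 3 (1.47, adjusted p = 0.0483) and with a replicate block that left out stimulated Mettl3 KO replicate 3 (1.52, adjusted p = 0.00869). Stimulated Tyrobp was lower without overlap (1691 to 2644 against 2813 to 3696), as 1.65% of all probes were, at -0.62 ± 0.31 (SE, adjusted p = 0.382). Stimulated Fcer1a and Ms4a2 differed by -0.37 ± 0.41 and -0.20 ± 0.32 (SE, adjusted p = 0.761 and 0.822), with overlapping libraries, although all 3 pairs had less Fcer1a on the Mettl3 KO side. The median probe differed by 0.20 in this comparison.

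Beyond the 4 genes, 35 genes of the receptor pathway on the panel were listed by role, and 31 of them were tested. As the mean of both genotypes, 8 rose and 7 fell, where 24.6% of all probes rose and 16.3% fell, and the median change of the 31 was -0.03 against -0.02 for all 545 probes. The number that rose was 3 without the 4 libraries of replicate 1, and the number that fell was 4 without unstimulated c-Kit KO replicate 1 or without stimulated Mettl3 KO replicate 3.

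Of the 8 proximal kinases and adaptors, 2 rose, 2 fell and 4 did not pass, where 24.6% of all probes rose and 16.3% fell. Lat, the membrane scaffold phosphorylated by Syk, rose by 0.66 ± 0.14 on the log2 scale (SE, edgeR adjusted p = 0.00207), from 530 to 693 normalized counts over the unstimulated libraries to 843 to 1118 over the stimulated ones. Vav2, a guanine nucleotide exchange factor, rose by 1.06 ± 0.30 (adjusted p = 0.0133). Its unstimulated libraries had 24.7 to 56.0 normalized counts, near single negative probes, which reached 38, so the size of its rise is uncertain. With the background subtracted the log2 change of Vav2 was 1.47 (edgeR adjusted p = 0.0150). Vav1, a relative of Vav2, fell by 0.52 ± 0.18 (adjusted p = 0.0337), and Syk, the kinase that binds phosphorylated ITAMs, fell by 0.57 ± 0.20 (adjusted p = 0.0361). The calls for Syk and Vav1 were lost without single libraries. Syk lay between -0.58 and -0.48 (adjusted p 0.0610 to 0.0967) without unstimulated c-Kit KO replicate 1 or 3, stimulated c-Kit KO replicate 2 or 3, unstimulated Mettl3 KO replicate 1, or stimulated Mettl3 KO replicate 1 or 3. Vav1 lay between -0.51 and -0.41 (adjusted p 0.0645 to 0.0968) without unstimulated c-Kit KO replicate 1 or 2, stimulated c-Kit KO replicate 1 or 3, unstimulated Mettl3 KO replicate 1, or stimulated Mettl3 KO replicate 2 or 3. Lat2, a second scaffold, differed by -0.51 ± 0.20 (adjusted p = 0.0607). With the replicate block it was -0.50 and passed (adjusted p = 0.0171), as it did without unstimulated c-Kit KO replicate 3 (-0.60, adjusted p = 0.0398) or unstimulated Mettl3 KO replicate 3 (-0.58, adjusted p = 0.0489). The kinase Btk differed by -0.30 ± 0.13 (adjusted p = 0.0858). Lat2 and Btk both passed with TMM scaling (adjusted p = 0.0150 and 0.0242), DESeq2 (0.00199 and 0.000770), a filter at a mean of 50 counts (0.0459 and 0.0465) and background subtraction (0.0410 and 0.0342), and Btk passed with unmoderated limma (0.00319).

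Of the 14 downstream transducers, 4 rose, 2 fell and 8 did not pass, where 24.6% of all probes rose and 16.3% fell. The calcium-regulated transcription factors moved apart. Nfatc1 rose by 1.37 ± 0.20 (SE, log2, edgeR adjusted p = 0.000257), from 149 to 182 normalized counts unstimulated to 287 to 855 stimulated. Nfatc2 fell by 1.34 ± 0.24 (adjusted p = 0.000949), from 218 to 348 down to 74.6 to 150.5. Pik3cg, the gamma catalytic subunit of PI3 kinase, fell by 1.19 ± 0.17 (adjusted p = 0.000189). The MAP kinase kinases Map2k1 and Map2k3 rose by 0.68 ± 0.19 and 0.67 ± 0.15 (adjusted p = 0.0111 and 0.00316), and Malt1, a protease of NF-κB signalling, rose by 0.66 ± 0.17 (adjusted p = 0.00890).

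Receptors other than the IgE receptor changed as well. Of 4 tested genes among other Fc receptors and ITAM chains, 2 fell and none rose, where 16.3% of all probes fell and 24.6% rose. Fcgr3, an activating IgG receptor that shares the gamma chain, fell by 2.18 ± 0.34 (SE, log2, edgeR adjusted p = 0.000325), from 620 to 1297 normalized counts unstimulated to 65.8 to 545 stimulated. Fcgr1 fell by 0.58 ± 0.19 (adjusted p = 0.0253) at 15 to 32 raw counts, within the range of single negative probes. It lay between -0.54 and -0.51 (adjusted p 0.0525 to 0.0701) without unstimulated c-Kit KO replicate 1, stimulated c-Kit KO replicate 2, unstimulated Mettl3 KO replicate 2, or stimulated Mettl3 KO replicate 1 or 3. Of 4 receptors that signal through Tyrobp, only Clec5a passed the filter on low counts, and it differed by -0.24 ± 0.18 (adjusted p = 0.314). Its raw counts of 19 to 37 also lay within the range of single negative probes. Raw counts of the other 3, Trem1, Trem2 and Klrk1, did not exceed 28.

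Of 4 inhibitory receptors with an ITIM, the motif that recruits phosphatases, 2 rose, 1 fell and 1 did not pass. Over all probes, 24.6% rose and 16.3% fell. Fcgr2b, the inhibitory IgG receptor, fell by 3.02 ± 0.31 (SE, log2, edgeR adjusted p = 2.03e-05), from 586 to 1114 normalized counts unstimulated to 54.9 to 163 stimulated. Ceacam1 rose by 2.82 ± 0.32 and Siglecf by 1.88 ± 0.34 (adjusted p = 4.81e-05 and 0.000949). Their unstimulated counts, at most 36.4 for Ceacam1 and 21.5 for Siglecf, lay at the level of single negative probes, so that the size of the rise is uncertain. With the background subtracted the log2 changes were 4.16 and 4.23, and both still passed (adjusted p = 0.00219 and 0.00332).

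**Figure D5:**
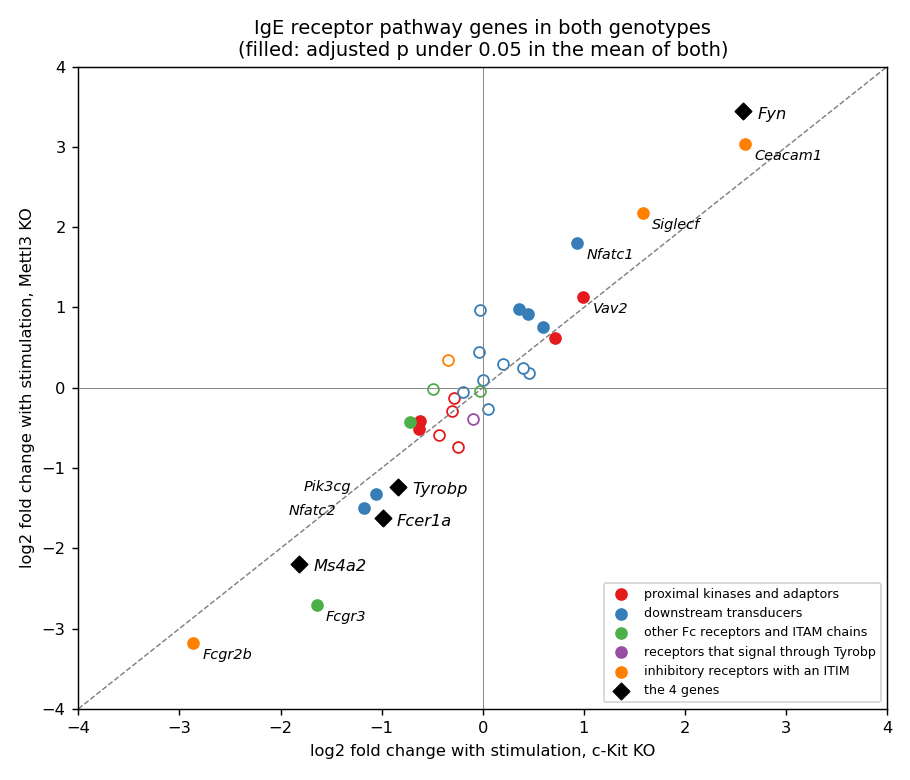
Log2 change with stimulation in cells labelled c-Kit KO (x axis) and Mettl3 KO (y axis) for the 31 tested pathway genes, coloured by role, and for the 4 genes (black diamonds), with a dashed line at equal change. Filled points passed as the mean of both genotypes, 8 of them above 0 and 7 below.

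For each of the 4 genes, the 3 probes most alike were those with the highest Pearson r of log2(normalized count + 1) over the 12 libraries. The libraries fall into 4 groups and share replicate numbers, so r is a description that mixes changes with stimulation and deviations between replicates, and no test was made. Fcer1a was closest to Cma1 (r = 0.954), a mast cell chymase, then Tmem173 (0.952), which encodes STING, and Ly6c1 (0.939). Cma1 itself differed by -0.59 ± 0.22 on the log2 scale with stimulation (SE, edgeR adjusted p = 0.0502). Ms4a2 was closest to Fcgr2b (r = 0.990), Il15 (0.972) and Stat4 (0.970). Tyrobp was closest to Scin (r = 0.931), which encodes an actin-severing protein and differed by -0.39 ± 0.18 (SE, log2, edgeR adjusted p = 0.109), then Aoah (0.929), which encodes a hydrolase of lipopolysaccharide, and Amica1 (0.923). Fyn was closest to Gadd45b (r = 0.985), a stress-induced gene, Nfil3 (0.975), a transcription factor, and Pdcd1lg2 (0.967), which encodes the ligand PD-L2.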

How the data were processed

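RNA (40 ng) of 12 samples was hybridized for 16 h to the nCounter panel. The authors deposited raw counts, whole numbers per probe and sample without scaling, and no alignment or genome build was involved. Their columns of mean, lowest and highest count and coefficient of variation were not used, and 0 columns of per-sample values lacked a sample. Scaling factors came from 20 housekeeping probes, as their geometric mean in a library relative to its average over libraries. Probes with at least 20 counts in at least 3 libraries were tested with edgeR 4.0.16 in R 4.3.3 (robust quasi-likelihood test, 1 model of the 4 groups, Benjamini-Hochberg adjustment within each comparison). The spread behind the edgeR p-values is that between libraries of a group, with all 12 libraries treated as independent. Samples with the same replicate number deviated together from their group means (18 of 18 pairs had r above 0.1, from 0.136 to 0.521, mean 0.334). The mean for different numbers was -0.168, which is no separate evidence, since deviations from a group mean cancel within the group. The authors give 3 independent biological replicates and the labels number them, so the numbers were taken to pair the samples. The main edgeR fit leaves this pairing out, so its p-values may be too large or too small. The stimulated Mettl3 KO library labelled 3 carries the number 5 in a supplementary table.

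The genes and lists were chosen with earlier results of these data known. Named genes were the 4 genes, Kit, pathway genes with an adjusted p under 0.05 as the mean of both genotypes, Syk, Lat, Lat2 and Btk whatever their values, and the 3 probes most alike for each of the 4. The mast cell markers, Gata3, Gata6, Clec5a and the unfiltered Trem1, Trem2 and Klrk1 were named after their values were seen. Alternatives covered scaling by TMM, positive controls or 16 housekeeping probes, filters, background subtraction, DESeq2 1.42.0, limma 3.58.1 with and without moderation, fits of only the groups compared, the replicate block and libraries left out. The test was tried on simulated counts. Promoters were RefSeq's (GRCm38.p6), with 3 of the 4 genes in the table, and gene positions came from GENCODE on GRCm39.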

Additional observations from a re-analysis of the deposited data

How the results depend on the processing

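All 28 alternatives kept the direction and the call of Ms4a2 and Fyn as the mean of both genotypes (log2 -2.19 to -1.80 and 2.75 to 3.29), and 27 of 28 those of Fcer1a and Tyrobp. Fcer1a was -1.26 (edgeR adjusted p = 0.0723) without replicate 1, in a range of -1.54 to -1.16 over the left-out libraries, and Tyrobp was -0.95 (adjusted p = 0.0648) with positive controls for scaling. The Fcer1a to Ms4a2 ratio changed by 0.52 to 0.79 over the left-out libraries. It changed by 0.77 without replicate 1, 0.57 without replicate 2 and 0.67 without replicate 3 (exact permutation p = 0.111, 0.0556 and 0.167). With a whole replicate removed the smallest exact p possible is 0.0556, which only the removal of replicate 2 reached.

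The replicate block changed the call of Fcer1a (-1.06) and Tyrobp (-0.81) in cells labelled c-Kit KO and of Lat2 (-0.50) and no other call among the 4 genes and the pathway genes named. The ratio stayed at 0.67 (exact sign permutation p = 0.0313, with same-numbered pairs of the genotypes treated as independent). In cells labelled c-Kit KO DESeq2 also called Fcer1a (-0.99, adjusted p = 0.0141), and Ms4a2 lost the call with positive controls (-1.53, adjusted p = 0.0570) and without replicate 2 (-1.79, adjusted p = 0.0695). Unmoderated limma on the groups compared alone lost the calls of Ms4a2 and Fyn there (-1.89 and 2.61). In cells labelled Mettl3 KO it lost Fcer1a and Tyrobp (-1.67 and -1.21). Without replicate 1 both lost the call too, as did Tyrobp with positive controls.

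Differences between genotypes that changed sign were Fcer1a unstimulated (-0.0325 without unstimulated Mettl3 KO replicate 2, in a range of -0.0325 to 0.488 over the left-out libraries), Ms4a2 unstimulated (-0.0261 with positive controls), Ms4a2 stimulated (0.08 without replicate 1, 0.17 without stimulated c-Kit KO replicate 1 and 0.17 without both c-Kit KO libraries of replicate 1, in a range from -0.460) and Tyrobp unstimulated (0.0748 without replicate 1, in a range from -0.560). The cause was not tested.

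Pathway genes that fell numbered 4 with positive controls, with the 16 housekeeping probes of at least 100 counts on average, and with the 16 that did not change, and 4 to 8 over the left-out libraries, and those that rose numbered 3 to 8 over the left-out libraries. Lat, Vav2, Map2k1, Map2k3 and Malt1 did not pass without replicate 1. Vav2 also lost the call without replicate 2 (edgeR adjusted p = 0.0910) and without both c-Kit KO libraries of replicate 1 (0.0682). Map2k1 lost it with positive controls (edgeR adjusted p = 0.0715) and without replicate 3 (0.0918), and Malt1 without replicate 3 (0.0851). Of the 20 housekeeping probes 4 passed between stimulated and unstimulated libraries (-0.50 to 1.14). Scaling moved the median of all probes from -0.02 to 0.14 with positive controls to 0.11 with either set of 16, and to -0.11 with TMM. Probes higher and lower numbered 134 and 44 with positive controls and 130 and 114 with TMM, in place of 134 and 89, and relative to the median Fcer1a, Ms4a2, Tyrobp and Fyn with positive controls were -1.29, -1.94, -1.09 and 2.97. Depth limits genes near 20 counts or fewer, which are at the level of negative probes. The setting that left out both c-Kit KO libraries of replicate 1 and that of unchanged housekeeping probes were chosen after seeing the data.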
